A study of Homo sapiens with 2 samples.

Results

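MPO-high neutrophil-lineage precursors were the 158 cells with abundant *MPO* transcripts among 36814 barcodes from blood-generating heart-forming organoids (BG-HFOs). They were selected on unique molecular identifiers (UMIs, one per captured transcript) in 2 libraries. A member had 500 to 9000 detected genes, under 15% mitochondrial UMIs, at least 20 *MPO* UMIs, at least 3 *AZU1* UMIs and at least 1 UMI of the leukocyte gene *PTPRC*. It had at most 2 *EPX* UMIs, under 20 *CLC* UMIs, at most 2 UMIs over *C1QA*, *C1QB* and *C1QC*, and no *CDH5* UMI. Of the 34749 barcodes that passed the limits on genes and mitochondrial UMIs, organoid 32.7 held 129 members of 15632 (0.825%, exact 95% binomial interval 0.689 to 0.98%). Organoid 33.10 held 29 of 19117 (0.152%, 0.102 to 0.218%). The share was 5.44 times larger in organoid 32.7 (mean 0.488% ± 0.476, SD, n = 2). These intervals cover counting error only, and with 1 condition there was no group to test the share against.

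Neutrophil precursors build their granules in a fixed order. At the promyelocyte stage they fill azurophil granules with myeloperoxidase (*MPO*), the serine proteases elastase (*ELANE*), proteinase 3 (*PRTN3*) and cathepsin G (*CTSG*), and the protease-like azurocidin (*AZU1*). Specific granules with lactoferrin (*LTF*) and tertiary granules with gelatinase (*MMP9*) are made later, when the cells stop dividing, and C/EBPε (*CEBPE*) is required for the specific granules.

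Both libraries came from BG-HFOs on day 14, made from hES3 NKX2.5–eGFP cells, a human embryonic stem cell line in which the cardiac gene *NKX2.5* drives a green fluorescent reporter. The organoids were grown in Matrigel under the same protocol, with the WNT modulators CHIR99021 and IWP2, BMP4, bFGF and VEGF, and a blood-supporting mixture that included SCF, EPO, IL-6, IL-11, IGF-1, FLT3 ligand, IL-3 and SHH. No untreated or genetically altered group was present, and both organoids carried the same reporter. The 32.7 library held 191152562 UMIs over 16866 barcodes and the 33.10 library 233818881 over 19948.

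The members were deep cells. The median was 25353 UMIs and 5755 genes per member in organoid 32.7 (3662 to 72705 UMIs) and 23486 UMIs and 5707 genes in organoid 33.10 (3917 to 65670 UMIs). The libraries shared 100 barcode sequences, and none of them belonged to a member. Among cells that met every other condition, the members nearest the *MPO* threshold had 20 UMIs in organoid 32.7 and 32 in organoid 33.10, and the nearest non-members had 19 and 12. Only 18 members (15 and 3) had 20 to 39 *MPO* UMIs, while 140 (114 and 26) had 40 or more. Below the threshold were 57 cells (49 and 8). *PRTN3* was at 616 counts per 1e6 UMIs (CPM) over the 17 cells of organoid 32.7 with 10 to 19 *MPO* UMIs, 698 CPM over the 9 with 20 to 29, and 3986 CPM over the 114 with 40 or more.

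**Figure D1:**
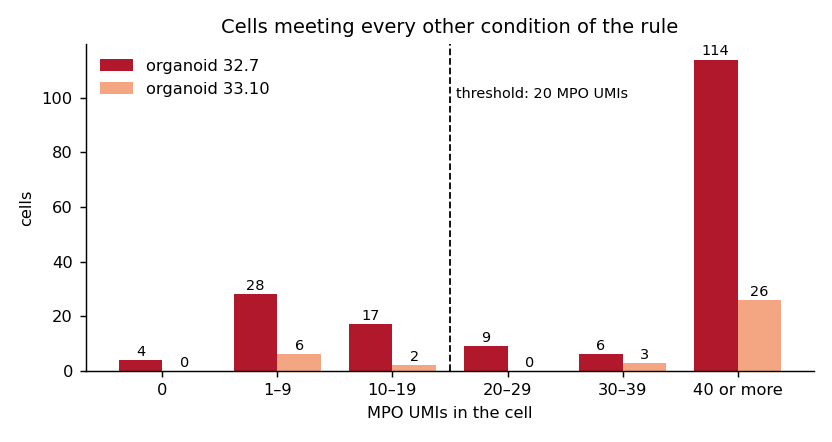
Number of cells (y axis) by *MPO* UMIs in the cell (x axis, in bins), for cells that met all other conditions of the rule, in organoids 32.7 (dark bars) and 33.10 (light bars). The dashed line is the threshold; 114 of 129 and 26 of 29 members lie at 40 UMIs or more.

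Transcripts of other lineages were present in some members. The 11 erythroid markers summed to 373 CPM in the members of organoid 32.7 and 4562 CPM in those of organoid 33.10, in which the genes with the largest single contributions were *HBG2* (132 CPM) and the embryonic globin *HBZ* (1475 CPM), respectively. In organoid 33.10, 7 of 29 members with 20 or more globin UMIs held 96.2% of the globin UMIs, and 1 of them held 1040. The median member had 7 globin UMIs there and 3 in organoid 32.7. The 8 cardiomyocyte markers summed to 733 and 794 CPM in the members against 29544 and 23317 CPM in cardiac cells (1316 and 1726 cells with at least 20 *TNNT2* and 5 *MYL7* UMIs). The 8 megakaryocyte markers summed to 420 and 341 CPM, of which *PF4* gave 206 and 238 CPM. Cardiac cells held the megakaryocyte markers at 713 and 1844 CPM and the erythroid markers at 4946 and 8597 CPM. These sums were above those of the members in both organoids. Without the 26 members that carried 20 or more globin UMIs, 10 or more *TNNT2* UMIs or 20 or more *PF4* and *PPBP* UMIs (19 and 7), *HBZ* was at 25.1 and 44.1 CPM, while *MPO* was at 5839 and 5159 CPM and *PRTN3* at 3873 and 3407 CPM. With such cells left out of both gates, a setting chosen after seeing the data, 2151 of the 2334 calls against C1Q-positive cells described next were shared; for the other comparisons it was not tested.

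Counts were summed over the members of each organoid and compared with sums over other blood cells of the same organoids by edgeR's quasi-likelihood test. The first were C1Q-positive macrophage-like cells (374 and 187 cells with at least 10 C1q UMIs and at most 2 UMIs each of *MPO*, *AZU1* and *EPX*). EPX-positive eosinophil-lineage cells (62 and 24, at least 3 *EPX* UMIs) and CD14-positive C1q-low cells (45 and 32, at least 1 *CD14* UMI) had fewer cells. The CD14 gate, like the C1Q gate, took cells with at most 2 UMIs each of *MPO*, *AZU1* and *EPX*, while the EPX gate set no limit on *MPO* or *AZU1*. CD14-positive cells were also shallower, with a median of 4877 and 5454 UMIs. The genes used by any of these gates were left out of the tests. The gates were set on measured counts, so genes that go with the gate genes follow the choice of cells. Against C1Q-positive cells, 1035 of 13279 genes tested were higher in the members (7.79%) and 1299 were lower (9.78%). Against EPX-positive cells, 231 of 10799 were higher (2.14%) and 162 lower (1.5%; 3.64% in either direction). Against CD14-positive cells, 182 were higher (1.69%) and 396 lower (3.67%). Each gate had only the 2 organoids, so these p-values rest on the spread between 2 sums per gate.

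Azurophil granule genes were abundant in the members. *MPO* was at 5659 CPM in organoid 32.7 and 5167 CPM in organoid 33.10, and *AZU1* at 635 and 542 CPM, both of which the selection had fixed. *PRTN3*, which the selection did not use, was at 3758 and 3639 CPM in the members against 2.31 and 3.21 CPM in C1Q-positive cells. The groups did not overlap, and the log2 fold change was 10.43 ± 0.27 (SE; adjusted p = 6.2e-08). *PRTN3* had enough counts for this test only through the members, which fixed its direction. A *PRTN3* UMI was found in 90.6 and 92.9% of members after every cell was thinned to 5000 UMIs, and in 1.30 and 0.252% of cardiac cells, a type that should lack it (median depths 12072 and 13289 UMIs before thinning). Before thinning it was found in 97.7 and 96.6% of members.

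Of the 18 tested azurophil genes, 11 were higher than in C1Q-positive cells (all genes: 7.79%), 2 were lower and 5 did not pass the test. *PRTN3*, *BPI*, *DEFA4*, *ELANE*, *CTSG* and *PRSS57* had enough counts only through the members, which fixed their direction. The gates had also been set apart on *MPO* and *AZU1*, so the count of 11 and the median are given as a description. The 11 included *RNASE2*, which the eosinophil list also held, and *DEFA3*, given below, was not among them. The median log2 fold change of the 18 genes was 3.29, beside -0.01 over all genes tested. *BPI*, which encodes a protein that binds bacterial lipopolysaccharide, was at 295 and 254 CPM against 0 and 0.535 (log2 fold change 10.34 ± 0.42, adjusted p = 4.3e-07). The defensin gene *DEFA4* was at 181 and 172 CPM against 0.136 and 0 (10.50 ± 0.35, adjusted p = 2.2e-07). Its UMIs came from few cells, 27 of 129 and 9 of 29 members. *DEFA3*, another defensin gene, was at 168 and 463 CPM and had no count in C1Q-positive cells, at least 819-fold higher over the summed cells (at least 413-fold within organoid 32.7 and 577-fold within 33.10); *DEFA3* and *DEFA1* are near-identical, so the assignment of its reads is uncertain. The myeloid serpin gene *SERPINB10* was at 59.8 and 51.6 CPM, also without a count in C1Q-positive cells (at least 216-fold higher over the summed cells, 147-fold within organoid 32.7 and 64.3-fold within 33.10).

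Serglycin (*SRGN*), the proteoglycan that packs proteases into granules, was at 5631 and 5364 CPM against 469 and 474 CPM in C1Q-positive cells (log2 fold change 3.56 ± 0.18, adjusted p = 1.9e-06). Lysozyme (*LYZ*) was at 4336 and 4561 CPM against 600 and 494 CPM (3.03 ± 0.19, adjusted p = 6.4e-06). *CST7*, which encodes the cysteine protease inhibitor cystatin F, was at 437 and 361 CPM against 3.0 and 4.3 CPM (6.85 ± 0.25, adjusted p = 2.4e-07). The 2 genes that were lower are lysosomal in many cell types: *CTSC*, the protease that activates the granule serine proteases, was at 383 and 438 CPM against 1232 and 1104 CPM (-1.5 ± 0.17, adjusted p = 0.00023), and *CD63* at 526 and 392 CPM against 826 and 829 CPM (-0.82 ± 0.20, adjusted p = 0.016).

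*ELANE* and *CTSG* were unevenly detected. *ELANE* was at 73.7 CPM in the members of organoid 32.7 and 11.9 CPM in those of organoid 33.10, with no count in C1Q-positive cells of either (at least 232-fold higher over the summed cells, but at least 14.8-fold in organoid 33.10 alone). Only 44 of 129 and 2 of 29 members had an *ELANE* UMI. One cell held 22% of the *ELANE* UMIs of organoid 32.7 and 88.9% of those of organoid 33.10, where the 2 cells held 9 UMIs. *CTSG* was at 16.5 and 9.26 CPM, in 21 and 5 members (log2 fold change 6.87 ± 0.74, adjusted p = 0.00015). *PRTN3* UMIs were thus found in nearly all members, and *ELANE* and *CTSG* UMIs in a minority of them.

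**Figure D2:**
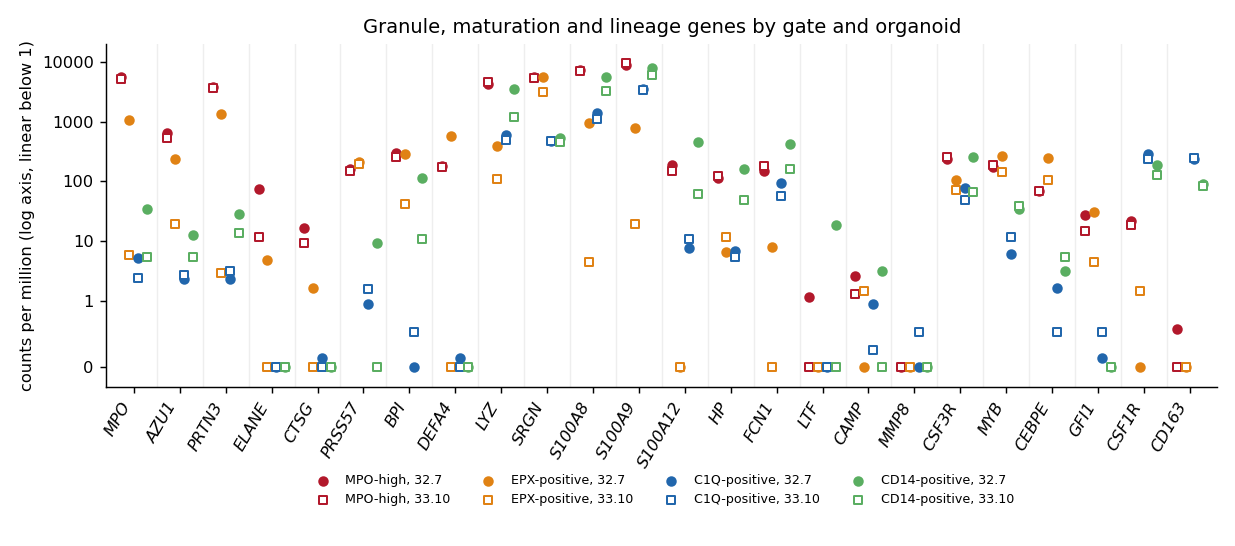
Summed CPM (y axis, log scale above 1) of granule, maturation and lineage genes (x axis) in the 4 gates, with filled circles for organoid 32.7 and open squares for organoid 33.10. *MPO*, *PRTN3* and *AZU1* of the MPO-high cells lie close together between organoids, *ELANE* does not, and *LTF*, *CAMP* and *MMP8* lie near 0; EPX-positive and CD14-positive cells are those of the wider gates (at least 3 *EPX* or 1 *CD14* UMI).

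*AZU1*, *PRTN3* and *ELANE* are neighbours on chromosome 19 (GRCh38, GENCODE v44), at chr19:825097-832018, chr19:840999-848175 and chr19:851014-856247 on the plus strand. In the window chr19:600000-900000, 16 protein-coding genes overlapped the window and 12 were tested against C1Q-positive cells. Of the 12, 7 were higher in the members and none was lower (all genes: 7.79% higher and 9.78% lower). *PRSS57*, *PLPPR3*, *PRTN3*, *ELANE* and *PALM* had enough counts only through the members, which fixed their direction. The window also surrounds the gate gene *AZU1*, so the count of 7 is given as a description. The gene before *AZU1* on the other strand, *PLPPR3* (chr19:812488-821955), a member of the phospholipid phosphatase-related family, was at 65.6 and 60.8 CPM against 1.77 and 1.07 CPM (log2 fold change 5.38 ± 0.30, adjusted p = 2.8e-06). The gene after *ELANE*, *CFD* (chr19:859453-867884), which encodes complement factor D, was at 369 and 270 CPM against 88 and 76.2 CPM (1.99 ± 0.20, adjusted p = 0.00011). *PRSS57*, a further neutrophil serine protease gene at chr19:685546-695498 on the minus strand, was at 163 and 152 CPM against 0.952 and 1.6 CPM (7.04 ± 0.25, adjusted p = 2.4e-07). EPX-positive cells held it at 215 and 193 CPM, and that difference did not pass the test (-0.47 ± 0.24, adjusted p = 0.38).

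*POLRMT* (10.7 and 9.26 CPM against 4.62 and 4.01; 1.25 ± 0.39, adjusted p = 0.053) did not pass the test. *PTBP1* (105 and 97.9 CPM against 62.4 and 69.5; 0.66 ± 0.16, adjusted p = 0.017) and *PALM* (16.0 and 5.29 CPM against 2.72 and 1.87; 2.40 ± 0.51, adjusted p = 0.0097) were higher. *PTBP1* lost its call with DESeq2 (adjusted p = 0.058) and thinned cells (adjusted p = 0.11). In contrast, *RNF126*, *FSTL3*, *MED16* and *R3HDM4* did not pass the test, with adjusted p from 0.22 to 0.92. Other genes of the window, such as *MISP*, had no count in the members. The window was chosen with these values in view.

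**Figure D3:**
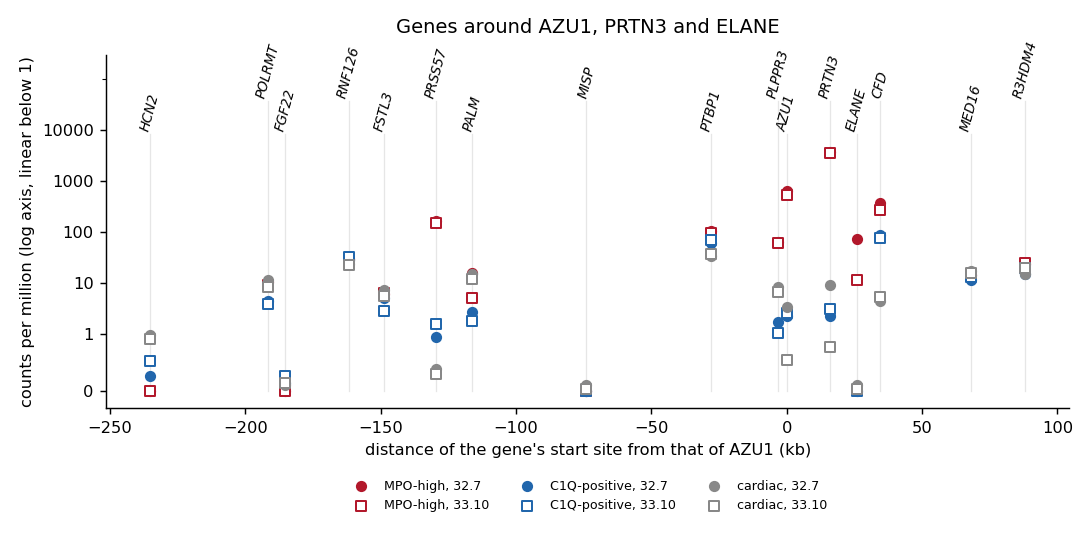
Summed CPM (y axis, log scale above 1) of the 16 protein-coding genes around *AZU1*, by the distance of their start site from that of *AZU1* (x axis, kb), in MPO-high, C1Q-positive and cardiac cells; circles are organoid 32.7 and squares organoid 33.10. *PRSS57*, *PLPPR3*, *AZU1*, *PRTN3* and *CFD* of the MPO-high cells lie above both other gates in both organoids, *ELANE* is at 73.7 and 11.9 CPM, and *RNF126*, *MED16* and *R3HDM4* lie together in all 3 gates.

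The promoters of *AZU1* and *PRTN3*, neighbours that were both abundant in the members, are given from RefSeq (GRCh38.p14), as the 250 bases before the annotated start, 5′ to 3′ on the plus strand. Capitals mark matches to TTNNGCAA (a C/EBP motif) or GAGGAA (the core of a PU.1 motif), searched on both strands with TTGCNNAA and TTCCTC.
AZU1, chr19:827587-827836: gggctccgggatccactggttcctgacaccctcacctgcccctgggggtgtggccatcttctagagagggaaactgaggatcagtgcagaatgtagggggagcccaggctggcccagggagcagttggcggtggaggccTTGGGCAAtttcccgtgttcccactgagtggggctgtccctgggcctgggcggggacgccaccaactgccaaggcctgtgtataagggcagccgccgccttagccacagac
PRTN3, chr19:840749-840998: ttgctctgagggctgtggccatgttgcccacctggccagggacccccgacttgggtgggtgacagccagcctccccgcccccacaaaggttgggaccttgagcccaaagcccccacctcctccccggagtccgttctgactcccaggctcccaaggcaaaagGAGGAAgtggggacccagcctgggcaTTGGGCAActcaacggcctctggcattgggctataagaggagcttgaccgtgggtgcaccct
Of 8 promoters searched (also *PRSS57*, *CTSG*, *CEBPE*, *S100A9*, *MYB* and *CFD*), these 2 were the ones that held TTNNGCAA. Both held TTGGGCAA, whose first base lay 111 bases before the *AZU1* start and 62 before the *PRTN3* start. Among 35116 RefSeq promoters of the same length, 9.05% held TTNNGCAA and 23.6% held GAGGAA, which was in the *PRTN3* window at 88 bases before the start. Another motif searched, AACNG (the core of a MYB motif), was in both windows and in 70.6% of all promoters, and is not capitalised. A match is a description of the letters in these windows. The *AZU1* window overlapped no GENCODE exon and lay within the longer GENCODE gene model.

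Of the 16 specific and tertiary granule genes, 11 had too few counts to be tested. *LTF* was at 1.16 CPM in organoid 32.7 and 0 in organoid 33.10, *CAMP*, which encodes the antimicrobial peptide precursor hCAP-18, at 2.61 and 1.32 CPM, and *LCN2*, *CRISP3* and *MMP8* had no count in either. A count of 0 allowed up to 0.871 CPM in the members of organoid 32.7 and 3.97 CPM in those of organoid 33.10. Of the 5 tested, 4 were higher than in C1Q-positive cells and 1 was lower (all genes: 7.79% higher and 9.78% lower). Haptoglobin (*HP*) was at 114 and 124 CPM against 6.94 and 5.35 CPM (log2 fold change 4.23 ± 0.21, adjusted p = 1.5e-06), and ficolin-1 (*FCN1*) at 152 and 181 CPM against 92.9 and 57.7 CPM (1.12 ± 0.23, adjusted p = 0.0081). *FCN1* lost its call with thinned cells (adjusted p = 0.062) and with the wider gates in a joint fit (adjusted p = 0.24). *CHI3L1* was at 31.1 and 21.2 CPM (2.37 ± 0.46, adjusted p = 0.0057). *ABCA13* was at 12.5 and 38.4 CPM against 0.272 and 0 CPM (6.70 ± 0.83, adjusted p = 0.00039). It had enough counts to be tested only through the members, which fixed its direction, so the count of 4 is given as a description. Gelatinase B (*MMP9*), at 20.3 and 2.65 CPM, was lower than in C1Q-positive cells, at 200.5 and 98.6 CPM (-3.23 ± 0.48, adjusted p = 0.0012).

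Maturation genes were split. The calprotectin genes *S100A8* and *S100A9*, which encode an abundant calcium-binding protein pair of neutrophils and monocytes, were at 7256 and 7171 CPM and at 8895 and 9519 CPM in the members, against 1420 and 1119 CPM and 3517 and 3451 CPM in C1Q-positive cells. Their log2 fold changes were 2.51 ± 0.20 (adjusted p = 2.1e-05) and 1.41 ± 0.17 (adjusted p = 0.00029). In the joint fit of 4 gates with the wider C1Q gate, the folds were 2.38 and 1.39 and no longer passed the test (adjusted p = 0.19 and 0.35). *S100A12* was at 187 and 151 CPM against 7.75 and 10.7 CPM (4.27 ± 0.22, adjusted p = 1.9e-06). The integrin gene *ITGAM* was lower, at 31.9 and 45.0 CPM against 92.1 and 118 CPM (-1.51 ± 0.20, adjusted p = 0.00057), as was the formyl peptide receptor gene *FPR1*, at 8.71 and 15.9 CPM against 77.7 and 96.8 CPM (-3.02 ± 0.25, adjusted p = 3.1e-05). The chemokine receptor genes of mature neutrophils were low, with *CXCR2* at 6.68 and 1.32 CPM (a UMI in 14.7 and 3.45% of members) and *CXCR1* without a count. In all, 5 of 12 tested maturation genes were higher and 3 lower (all genes: 7.79% higher and 9.78% lower), with a median log2 fold change of 1.15.

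The subunits of NADPH oxidase, the enzyme that supplies superoxide for the peroxide used by myeloperoxidase, were lower than in C1Q-positive cells in 4 of 7 genes and higher in none (all genes: 7.79% higher and 9.78% lower). *CYBB*, the catalytic subunit, was at 297 and 377 CPM against 714 and 700 CPM (log2 fold change -1.07 ± 0.17, adjusted p = 0.002). Against EPX-positive cells (66.5 and 40.2 CPM), *CYBB* was higher (2.51 ± 0.32, adjusted p = 0.0021). *NCF1* has near-identical pseudogenes and its counts are uncertain.

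Transcription factors of the granulocyte lineage were present. *MYB*, required for the growth of immature blood cells, was at 173 and 187 CPM in the members against 6.0 and 11.8 CPM in C1Q-positive cells (log2 fold change 4.44 ± 0.25, adjusted p = 3.2e-06). Against EPX-positive cells (262 and 146 CPM) it did not pass the test (-0.31 ± 0.29, adjusted p = 0.68), and organoid 33.10 alone gave 0.17. *CEBPE* was at 68.8 CPM in both organoids against 1.63 and 0.535 CPM (5.77 ± 0.34, adjusted p = 3.8e-06). *GFI1*, a repressor needed for neutrophil formation, was at 27.3 and 14.6 CPM against 0.136 and 0.535 CPM (6.23 ± 0.61, adjusted p = 7.7e-05), but did not pass the test against EPX-positive cells (30.8 and 4.46 CPM; 0.11 ± 0.62, adjusted p = 0.97). Against C1Q-positive cells, *CEBPE* and *GFI1* had enough counts only through the members, which fixed their direction. A *MYB* UMI was found in 50.8 and 39.3% of members at 5000 UMIs per cell, and in 0.746 and 1.14% of cardiac cells. *CEBPE* was found in 28.1 and 28.6% of members and in 0.0932 and 0.0631% of cardiac cells.

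Of the 22 myeloid transcription factors, 7 were higher, 7 lower and 8 did not pass the test (all genes: 7.79% higher and 9.78% lower), and the median log2 fold change was -0.03. The 7 higher ones included *CEBPE* and *GFI1*, whose direction the members fixed. *RUNX1* was higher at 474 and 614 CPM against 211 and 314 CPM (1.06 ± 0.21, adjusted p = 0.0057), as was *NFE2* at 90.3 and 83.3 CPM against 23.5 and 16.6 CPM (2.11 ± 0.22, adjusted p = 0.00011). *IRF8*, a factor of monocyte formation, was lower, at 8.42 and 6.61 CPM against 67.2 and 59.3 CPM (-2.95 ± 0.25, adjusted p = 3.1e-05). *SPI1*, which encodes PU.1, was at 241 and 238 CPM against 354 and 345 CPM (-0.53 ± 0.16, adjusted p = 0.046), a difference that did not pass the test with cells thinned to 5000 UMIs (adjusted p = 0.21), with the wider gates (0.32) or without cells rich in transcripts of other lineages (0.053). *CEBPA*, which encodes a factor that starts granulocyte formation, was at 33.4 and 22.5 CPM against 21.9 and 18.2 CPM and did not pass the test, and the sign of its log2 fold change turned with thinned cells (-0.16, adjusted p = 0.88).

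Of the 20 progenitor genes, 4 had no count in the members of organoid 32.7 and 7 had none in those of organoid 33.10. *FLT3*, *HOXA9*, *HLF* and *IGLL1* had no count in the members of either organoid, *KIT* was at 3.19 and 1.32 CPM, *SPINK2* at 1.74 and 0 CPM, and *CD34* at 3.48 and 7.94 CPM. Of the 12 progenitor genes with enough counts, 5 were higher than in C1Q-positive cells and 1 was lower (all genes: 7.79% higher and 9.78% lower). The higher ones were *CD38*, *MYC*, *CLEC12A*, *SPN* and *CLEC11A*, of which *MYC* lost its call with DESeq2 (adjusted p = 0.055), thinned cells (log2 fold change 0.52, adjusted p = 0.35) and the wider gates (adjusted p = 0.11). *CD38*, at 9.29 and 19.8 CPM against 0.952 and 0.267 CPM, had enough counts only through the members, which fixed its direction. *CLEC11A*, a secreted growth factor of blood progenitors, was at 321 and 300 CPM against 70.9 and 69.0 CPM (log2 fold change 2.17 ± 0.16, adjusted p = 1.4e-05). *SPN*, which encodes CD43, was at 182 and 152 CPM against 25.6 and 30.7 CPM (2.62 ± 0.18, adjusted p = 1e-05). Of 8 genes of the fetal programme, *LIN28B*, an RNA-binding protein that blocks let-7 maturation, was higher (165 and 189 CPM against 88.3 and 117; 0.80 ± 0.17, adjusted p = 0.0096), and none was lower (all genes: 7.79% higher and 9.78% lower).

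Receptors for the supplied cytokines were unevenly represented. *KIT* and *FLT3*, the receptors for SCF and FLT3 ligand, were near or at 0 as above. Of the 14 tested, 1 was higher than in C1Q-positive cells and 1 lower, shares close to those of all genes (7.79% and 9.78%). The higher one was *IGF1R*, the receptor for IGF-1, at 185 and 187 CPM against 45.8 and 54.3 CPM (log2 fold change 1.91 ± 0.16, adjusted p = 2.8e-05). *IL3RA*, the α-chain of the IL-3 receptor, was at 23.2 and 17.2 CPM against 41.5 and 36.6 CPM (-0.85 ± 0.23, adjusted p = 0.033), a call lost with DESeq2 (adjusted p = 0.15), thinned cells (0.083) and the wider gates (0.076). *IL6R* was at 45.0 and 55.6 CPM against 51.0 and 44.1 CPM (0.04 ± 0.19, adjusted p = 0.91). Against EPX-positive cells, *IL6R* was higher (6.49 and 7.44 CPM there; 2.74 ± 0.44, adjusted p = 0.0063), as was the VEGF receptor gene *FLT1*, at 47.3 and 78.0 CPM against 12.2 and 14.9 CPM (2.06 ± 0.41, adjusted p = 0.018), whose call was lost with thinned cells (adjusted p = 0.23).

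Among 5 tested colony-stimulating factor receptor genes, 1 was higher and 3 were lower than in C1Q-positive cells (all genes: 7.79% and 9.78%). Of the lower ones, *IL3RA* and *CSF2RA* lost their calls under other settings; for *CSF2RA* the adjusted p was 0.055 with DESeq2, 0.17 with thinned cells and 0.1 with the wider gates. *CSF3R*, the receptor for G-CSF, the main growth factor of neutrophils, was at 235 and 261 CPM in the members against 77.8 and 48.4 CPM in C1Q-positive cells (1.96 ± 0.23, adjusted p = 0.00026). It did not pass the test against EPX-positive cells (105 and 71.4 CPM; 1.36 ± 0.47, adjusted p = 0.17; 0.043 in the fit with organoid as a blocking term) or CD14-positive cells (258 and 66.1 CPM; 0.69 ± 0.49, adjusted p = 0.45). *CSF1R*, the receptor for the macrophage growth factor M-CSF, was at 21.5 and 18.5 CPM against 283 and 235 CPM (-3.62 ± 0.21, adjusted p = 3.8e-06). *IL5RA*, the eosinophil receptor for IL-5, was at 1.45 and 1.32 CPM against 119 and 179 CPM in EPX-positive cells (-6.73 ± 0.41, adjusted p = 4.2e-05). It had enough counts only through the EPX-positive cells, which fixed its direction. *CSF2RB*, the chain shared by the receptors for IL-3, IL-5 and GM-CSF, was at 24.4 and 13.2 CPM against 103 and 122 CPM there (-2.50 ± 0.27, adjusted p = 0.00079), which did not pass the test after thinning (adjusted p = 0.2).

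Genes for protein folding in the endoplasmic reticulum, where granule proteins are made, were higher than in C1Q-positive cells in 12 of 18 cases and lower in none (all genes: 7.79% higher and 9.78% lower), with a median log2 fold change of 0.75. The 18 genes summed to 7700 and 7427 CPM in the members and 4338 and 5034 CPM in C1Q-positive cells. Calreticulin (*CALR*), a chaperone of the myeloperoxidase precursor, was at 1726 and 1856 CPM against 828 and 1065 CPM (0.93 ± 0.17, adjusted p = 0.0046). The chaperone gene *HSPA5* was at 832 and 755 CPM against 369 and 486 CPM (0.91 ± 0.18, adjusted p = 0.0067), and *P4HB*, which encodes a disulfide isomerase, at 445 and 438 CPM against 187 and 203 CPM (1.19 ± 0.16, adjusted p = 0.0006). Against EPX-positive cells none of the 18 passed edgeR's test, and the median log2 fold change was 0.20. Unadjusted p was under 0.05 for 5 genes, with *CRELD2*, *HSP90B1*, *HSPA5* and *SEL1L* higher in the members and *SSR4* lower (-0.41). Against CD14-positive cells 11 were higher and none lower (all genes: 1.69% higher).

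Cell cycle genes were transcribed in the members. The 15 G2 and M phase genes summed to 1778 and 1864 CPM in the members, 1569 and 1385 CPM in C1Q-positive cells and 346 and 431 CPM in cardiac cells. *MKI67*, a gene of cycling cells, was at 200 and 231 CPM against 189 and 178 CPM in C1Q-positive cells (log2 fold change 0.24 ± 0.16, adjusted p = 0.35). Of these 15 genes, the kinase gene *BUB1* was higher than in C1Q-positive cells (0.70 ± 0.18, adjusted p = 0.02; DESeq2 adjusted p = 0.073; wider gates, 0.12). The share of all genes called higher was 7.79%. Of 15 S phase genes, *TYMS* (0.60 ± 0.18, adjusted p = 0.048) and *RRM2* (0.67 ± 0.17, adjusted p = 0.025) were higher, and neither passed after thinning (adjusted p = 0.1 for *TYMS* and 0.0501 for *RRM2*) or with the wider gates (0.18 and 0.058). Cells differed widely at 5000 UMIs per cell, with 0 to 35 G2 and M phase UMIs (median 4.5) in organoid 32.7 and 0 to 34 (median 6) in organoid 33.10.

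Markers of macrophages and antigen presentation were low. All 9 tested MHC class II genes were lower than in C1Q-positive cells (all genes: 9.78%). *HLA-DRA*, *HLA-DRB1*, *HLA-DPA1*, *HLA-DQB1*, *HLA-DMB* and *CIITA* had enough counts only through C1Q-positive cells, which fixed their direction. Against EPX-positive cells none of 8 passed the test, and against CD14-positive cells 3 of 8 were lower (all genes: 3.67%). The 10 listed genes summed to 40.4 and 25.1 CPM in the members and 51.3 and 50.3 CPM in cardiac cells. *CD74*, the invariant chain, was at 13.4 and 11.9 CPM against 532 and 188 CPM (log2 fold change -4.78 ± 0.52, adjusted p = 0.00016), and *HLA-DRA* at 2.03 and 0 CPM against 568 and 135 CPM (-7.71 ± 0.92, adjusted p = 0.00029). The C1q gates set members and comparator apart as macrophage-like or not, so the levels of other macrophage markers are given as a description of the gates. The scavenger receptor gene *CD163* was at 0.581 and 0 CPM against 235 and 251 CPM (-8.87 ± 0.34, adjusted p = 3.6e-07), the mannose receptor gene *MRC1* at 4.06 and 2.65 CPM against 476 and 516 CPM (-6.99 ± 0.25, adjusted p = 2.4e-07), and *FCGR2B*, an inhibitory Fc receptor gene, at 1.45 and 1.32 CPM against 305 and 287 CPM (-7.63 ± 0.28, adjusted p = 2.4e-07). *CCL4*, a chemokine gene, was at 0.581 and 0 CPM against 193 and 56.4 CPM (-7.95 ± 1.00, adjusted p = 0.00042). The phosphatidylserine receptor gene *TIMD4* had no count in the members and was at 72.5 and 100 CPM in C1Q-positive cells. The eosinophil gene *PRG2* was higher in the members than in C1Q-positive cells (384 and 71.4 CPM against 6.80 and 26.2, log2 fold change 4.05 ± 0.71, adjusted p = 0.0033). Cardiac cells held *PRG2* at 53.3 and 83.4 CPM, above the members in organoid 33.10. *RNASE2* (0.85 ± 0.19, adjusted p = 0.011) and *RNASE3* (2.48 ± 0.21, adjusted p = 3.6e-05) were higher too. Of 7 megakaryocyte markers 1, *ITGA2B*, was higher (29.6 and 23.8 CPM against 15.1 and 15.2, all genes: 7.79%). Without the members rich in transcripts of other lineages, *ITGA2B* was at 6.61 and 5.29 CPM in the members. None of the 11 erythroid and none of the 8 cardiomyocyte markers differed by edgeR's test, and none had an unadjusted p under 0.05.

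**Figure D4:**
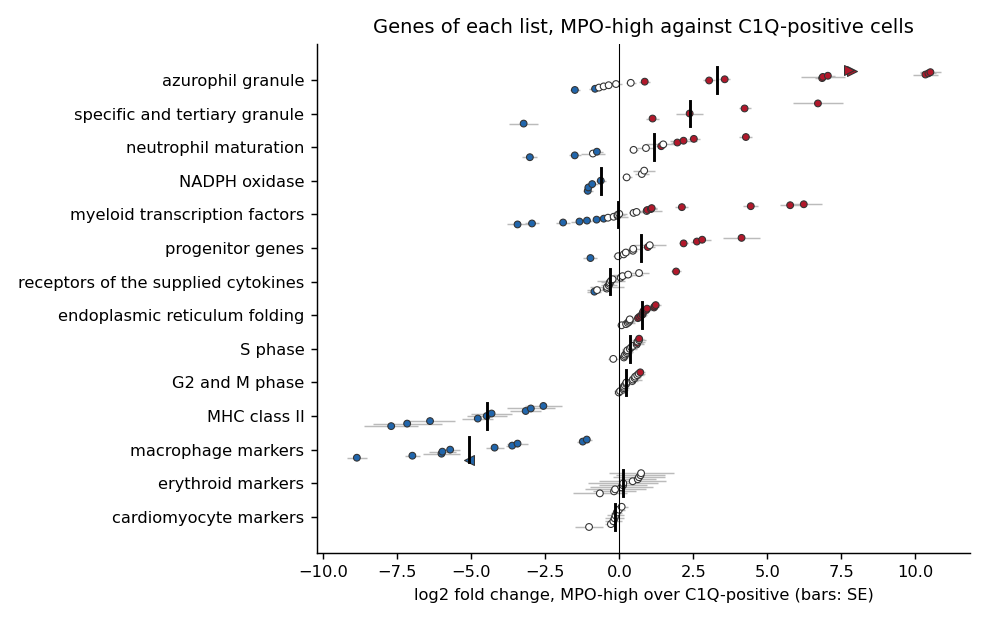
Log2 fold change of MPO-high over C1Q-positive cells (x axis, with SE) for the tested genes of 14 lists (y axis); filled points passed the test at 0.05 (red higher, blue lower), open points did not, vertical bars are list medians, and triangles mark genes without a count in one gate, drawn at the bound that 3 counts give. Granule genes reach 10.50, all MHC class II genes and macrophage markers are below 0, and the cell cycle lists lie close to 0.

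Against EPX-positive cells, 2 of 17 azurophil genes were higher in the members and 2 lower, with a median log2 fold change of 0.45 (all genes: 2.14% higher and 1.5% lower, median 0.02). Of the 62 EPX-positive cells of organoid 32.7, 12 held 20 or more *MPO* UMIs, and of the 24 of organoid 33.10 none did. Those 12 cells held 93.1% of the *MPO* and 85.7% of the *PRTN3* UMIs of their sum. *PRTN3* was at 1371 and 2.98 CPM in EPX-positive cells, and its difference from the members did not pass the test (log2 fold change 2.32 ± 1.15, adjusted p = 0.37). *LYZ* was higher in the members (396 and 112 CPM in EPX-positive cells; 4.01 ± 0.63, adjusted p = 0.0053), as were *S100A9* (783 and 19.3 CPM; 4.41 ± 0.99, adjusted p = 0.035), *FCN1* (8.11 and 0 CPM; 4.90 ± 0.73, adjusted p = 0.0043) and *HP* (6.49 and 11.9 CPM; 3.69 ± 0.61, adjusted p = 0.0077). *S100A8* (968 and 4.46 CPM) did not pass the test (3.78 ± 1.17, adjusted p = 0.12), but did in the fit with organoid as a blocking term (4.50, adjusted p = 0.029) and with thinned cells (4.34, adjusted p = 0.00096). *S100A12* had no count in EPX-positive cells and was at least 115-fold higher in the members over the summed cells (76.9-fold within organoid 32.7 and 33.8-fold within 33.10).

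The largest differences from EPX-positive cells by the rule for named genes included receptors and kinases. The growth factor gene *NRG1* was at 133 and 196 CPM in the members against 2.43 and 4.46 CPM (5.55 ± 0.36, adjusted p = 3.8e-05), *CLEC7A*, the receptor for fungal β-glucan, at 36.3 and 80.7 CPM against 0.811 and 1.49 CPM (5.50 ± 0.68, adjusted p = 0.0015), and the kinase gene *LRRK2* at 49.4 and 82.0 CPM against 1.62 and 0 CPM (5.73 ± 0.94, adjusted p = 0.0069). *NRG1* and *CLEC7A* ran the other way against the remaining gates. *NRG1* was at 1278 and 1216 CPM in C1Q-positive cells (-2.95 ± 0.21, adjusted p = 1.2e-05) and 965 and 917 CPM in CD14-positive cells (-2.46 ± 0.23, adjusted p = 0.00034). *CLEC7A* was at 237 and 261 CPM (-2.24 ± 0.28, adjusted p = 0.00038) and 181 and 140 CPM (-1.51 ± 0.34, adjusted p = 0.029). On the other side, *PRG2*, eosinophil major basic protein, was at 384 and 71.4 CPM in the members against 34046 and 34578 CPM (-7.28 ± 0.78, adjusted p = 0.00068), and its homologue *PRG3* at 3.19 and 1.32 CPM against 2729 and 1997 CPM (-9.79 ± 0.42, adjusted p = 1.4e-06). Only 39 of 129 and 9 of 29 members had a *PRG2* UMI, and in organoid 32.7, 3 cells held 51.3% of these. *HDC*, which makes histamine, was at 0.29 and 0 CPM against 77.8 and 292 CPM (-9.37 ± 1.09, adjusted p = 0.0012), the receptor gene *PTH2R* at 0.581 and 3.97 CPM against 246 and 342 CPM (-7.93 ± 0.47, adjusted p = 1.8e-05), and the kinase gene *CDK15* at 0.29 and 0 CPM against 51.1 and 72.9 CPM (-7.83 ± 0.69, adjusted p = 0.00042). *PRG3*, *HDC*, *PTH2R* and *CDK15* had enough counts only through EPX-positive cells, which fixed their direction. The gates had been set apart on *EPX*, so the levels of eosinophil genes, and of *GATA2* below, are given as a description of the gates.

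*GATA2*, a factor of eosinophil, basophil and mast cell formation, was at 6.68 and 2.65 CPM in the members against 88.4 and 122 CPM (-4.26 ± 0.34, adjusted p = 0.00016), and *GATA1* at 6.39 and 7.94 CPM against 54.3 and 77.4 CPM (-3.34 ± 0.57, adjusted p = 0.0089). *CEBPE* was lower in the members, with 242 and 106 CPM in EPX-positive cells (-1.47 ± 0.34, adjusted p = 0.04). *TFEC* was higher at 72.3 and 89.9 CPM against 9.73 and 4.46 CPM (3.25 ± 0.33, adjusted p = 0.00047). Of the 22 factors, 2 were higher and 5 lower than in EPX-positive cells (all genes: 2.14% and 1.5%).

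Against CD14-positive C1q-low cells, 4 of 17 azurophil genes were higher in the members and 1 was lower (all genes: 1.69% and 3.67%), with a median log2 fold change of 0.95. The CD14-positive cells had been chosen for at most 2 *MPO* and 2 *AZU1* UMIs. Azurophil genes that go with these follow that choice, and their count is given as a description. *S100A9*, at 7893 and 6024 CPM there, did not pass the test (log2 fold change 0.48 ± 0.86, adjusted p = 0.81). *LYZ*, at 3568 and 1198 CPM, also did not pass the test (0.95 ± 0.56, adjusted p = 0.35). *PRTN3* was higher in the members, with 28.0 and 13.8 CPM there (7.57 ± 1.65, adjusted p = 0.027), as were *PRSS57* (9.34 and 0 CPM; 5.25 ± 0.51, adjusted p = 0.00036) and *CST7* (18.7 and 13.8 CPM; 4.72 ± 0.65, adjusted p = 0.0028). *ELANE*, without a count in CD14-positive cells, did not pass the test (adjusted p = 0.072), and *CTSC* was lower in the members (1003 and 832 CPM there; -1.09 ± 0.20, adjusted p = 0.012). *HP* (159 and 49.6 CPM; 0.28 ± 0.49, adjusted p = 0.79) and *FCN1* (423 and 160 CPM; -0.75 ± 0.48, adjusted p = 0.40) did not pass it either, and the sign of both differed between organoids. *MS4A3*, a membrane protein gene of granulocyte precursors, was at 247 CPM in the members of both organoids against 0 and 5.51 CPM (6.47 ± 0.46, adjusted p = 6.8e-05), and *PLPPR3* was higher here too (3.11 and 0 CPM; 5.49 ± 0.84, adjusted p = 0.0051). *MYB* (34.2 and 38.6 CPM; 2.39 ± 0.41, adjusted p = 0.009) and *CEBPE* (3.11 and 5.51 CPM; 4.05 ± 0.77, adjusted p = 0.014) were higher in the members.

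The genes furthest below CD14-positive cells by the rule for named genes were *CD163* (90.3 and 82.6 CPM there; -7.26 ± 0.46, adjusted p = 6.8e-05), *CD163L1* (115 and 49.6 CPM; -6.65 ± 0.67, adjusted p = 0.00076), *FCGR2B* (93.4 and 143 CPM; -6.22 ± 0.38, adjusted p = 2.9e-05), *HLA-DRA* (181 and 27.5 CPM; -5.84 ± 1.29, adjusted p = 0.028) and *MRC1* (156 and 267 CPM; -5.69 ± 0.35, adjusted p = 2.9e-05). *CSF1R* was lower too (187 and 127 CPM; -2.83 ± 0.31, adjusted p = 0.00084). Of 15 G2 and M phase genes, 1 was higher in the members, *MKI67* (62.3 and 135 CPM; 1.20 ± 0.30, adjusted p = 0.043). Of 15 S phase genes, 1 was higher, *RRM2* (52.9 and 110 CPM; 1.23 ± 0.27, adjusted p = 0.029). The share of all genes called higher was 1.69%. All 15 genes of each list had a positive log2 fold change, and 11 and 12 of them had an unadjusted p under 0.05 by edgeR's test.

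The members differed widely in calprotectin. *S100A9* ran from 0 to 2806 UMIs per cell in organoid 32.7 (median 54) and from 0 to 1500 in organoid 33.10 (median 63), and *S100A8* from 0 to 2361 (median 36) and from 0 to 1079 (median 45). Both genes had members at 0, and part of the cells carried the sums: the 3 highest members held 22.2 and 52.9% of the *S100A9* UMIs. Members near the *MPO* threshold had more of it. In organoid 32.7 the median was 356 *S100A9* UMIs in the 9 members with 20 to 29 *MPO* UMIs, 112 in the 6 with 30 to 39 and 44.5 in the 114 with 40 or more, and in organoid 33.10 it was 967 in the 3 with 30 to 39 and 46.5 in the 26 with 40 or more. *MPO*, whose lower end the rule had set, ran from 20 to 618 and from 32 to 357 UMIs, with medians of 121 in both organoids.

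The members were ordered by their summed *S100A8* and *S100A9* UMIs after thinning to 5000 UMIs per cell, an order chosen after these spreads were seen and given here as a description. It covered 128 members of organoid 32.7 (0 to 932 UMIs) and 28 of organoid 33.10 (0 to 954 UMIs), leaving out 1 shallower member each. All points of an organoid share a library, and the members high in calprotectin were shallower before thinning, with a median of 21936 UMIs above the middle of the order and 28874 below it in organoid 32.7, and 20195 and 29726 in organoid 33.10.

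Along this order, *NPM1*, a nucleolar protein of growing cells, was lower at the calprotectin-rich end (Spearman's rho across cells -0.66 and -0.53), with means of 7.73 and 3.34 UMIs in cells below and above the middle of the order in organoid 32.7 and 6 and 2.57 in organoid 33.10. *CALR* had means of 11.6 and 5.31 and of 13.2 and 3.07 UMIs (rho -0.59 and -0.87), and *PRSS57* means of 1.02 and 0.406 and of 1.57 and 0.286 UMIs (rho -0.33 and -0.59). *LYZ* was higher there, with means of 16.9 and 39.1 and of 10.2 and 36.9 UMIs (rho 0.53 and 0.68), and resistin (*RETN*), a secreted protein of myeloid cells, with means of 0.625 and 6.91 and of 0.357 and 9.71 UMIs (rho 0.71 and 0.80). *HP*, *FCN1*, *MNDA* and *CYBB* had rho of 0.49 to 0.54 in organoid 32.7 and 0.50 to 0.75 in organoid 33.10.

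Other genes followed it weakly or not in both organoids. *MPO* had a rho of 0.11 and -0.33, *PRTN3* -0.20 and -0.34, *MYB* -0.20 and -0.42, and *CEBPE* 0.04 and 0.13. *SRGN* had -0.08 and -0.54. The summed G2 and M phase genes had 0.16 and -0.07, with means of 6.06 and 9.38 UMIs below and above the middle in organoid 32.7 and 8.57 and 8.07 in those of organoid 33.10.

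**Figure D5:**
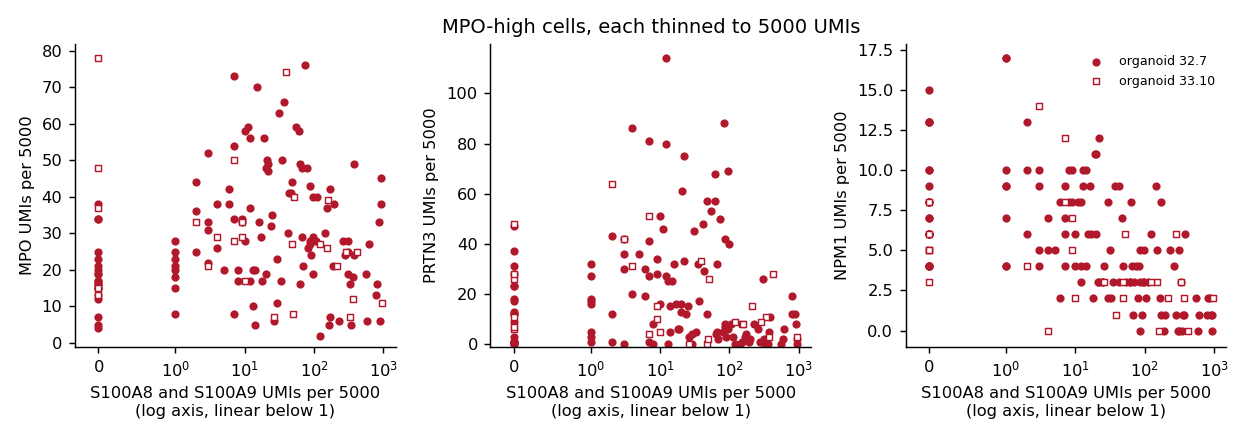
*MPO* (left), *PRTN3* (middle) and *NPM1* (right) UMIs (y axes) against summed *S100A8* and *S100A9* UMIs (x axis, log scale above 1) in each MPO-high cell thinned to 5000 UMIs, with filled circles for 128 cells of organoid 32.7 and open squares for 28 of organoid 33.10. *NPM1* is lower to the right (rho -0.66 and -0.53), while *MPO* shows no shared direction (0.11 and -0.33).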

How the data were processed

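Single-cell 3′ libraries of 2 BG-HFOs were analysed. The deposited counts are UMIs per gene and barcode made by the authors with Cell Ranger 7.0.0 (GRCh38, introns included, per the methods), before their depth equalisation, ambient RNA correction and cell filters, none of which is in these values. Intronic UMIs make levels depend on gene length, so differences were tested between gates and not between genes, and the gene with most UMIs of a list is not thereby the most expressed. The members, gene lists and tests were chosen with earlier results of these data known. Gates were applied to raw UMIs, and no cell was removed as a doublet in the reported values. UMIs were summed per gate and organoid, and CPM is a gene's share of that sum. Sums were tested with edgeR 4.0.16 (quasi-likelihood, TMM, filterByExpr, Benjamini–Hochberg adjustment, 0.05; tested on simulated data), without the 10 gate genes. A gate needed 20 cells in each organoid. The planned EPX and CD14 gates (at least 10 *EPX* or 2 *CD14* UMIs) held 45 and 18 and 11 and 14 cells, so both were compared through the planned wider gates, in 1 fit of 4 gates; the C1Q comparison is a fit of 2 gates. Genes named per comparison were the listed genes and the 5 with the largest fold in each direction among those past the threshold, in the same direction in both organoids and at 50 CPM or more in the higher gate, without mitochondrial, accession-named and LINC genes. Some listed genes are not reported here. The methods describe the organoids as grown independently. Sums of one organoid are paired: deviations of the members from the mean of both organoids correlated with those of C1Q-positive cells at 0.18, of EPX-positive at 0.09 and of CD14-positive at 0.06 over 10799 genes. Alternatives included DESeq2 1.42.0, RLE scaling and Scrublet (scanpy 1.11.5).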

Additional observations from a re-analysis of the deposited data

How the results depend on the processing

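Of 136 comparisons of named genes, 129 kept their direction under every setting tried, including the values from 1 organoid alone, which have no test. The 7 exceptions had not passed the test. From organoids 32.7 and 33.10 alone, the log2 fold changes were -0.66 and 0.17 for *MYB* and -0.24 and 1.32 for *GFI1* against EPX-positive cells, -0.0901 and 2.07 for *CSF3R*, -0.43 and 1.41 for *HP* and -1.43 and 0.29 for *FCN1* against CD14-positive cells, and -0.16 and 0.33 for *IL6R* against C1Q-positive cells. With cells thinned to 5000 UMIs, *CEBPA* against C1Q-positive cells was at -0.16 (adjusted p = 0.88) and *GFI1* against EPX-positive cells at -0.69. *IL6R* against C1Q-positive cells was at -0.0226 without the filter on low counts, -0.0206 with members from 10 *MPO* UMIs and -0.000928 without the highest Scrublet scores. Over all settings, 34 values of named genes lost and 9 gained their call. Counts of genes past the threshold stayed within 1.5 times except as follows. Against C1Q-positive cells, 657 genes were higher with DESeq2, 512 were higher and 703 lower with cells thinned to 5000 UMIs, and 678 higher and 839 lower with the wider comparator gates in the joint fit. Against EPX-positive cells, 123 were higher and 100 lower after thinning, and 513 and 397 without a filter on low counts. Against CD14-positive cells, 632 and 823 passed without the filter, and 316 were higher without the highest Scrublet scores. The cause was not tested. With the organoid as a replicate block, 1365 genes were higher and 1596 lower than in C1Q-positive cells, 302 and 201 than in EPX-positive cells, and 251 and 523 than in CD14-positive cells. Besides *S100A8* and *CSF3R* against EPX-positive cells, the block changed no call of a named gene. The share of members was 0.152% in organoid 33.10 alone and 0.825% in organoid 32.7 alone, and its mean was 0.409 to 0.548% under the other settings. Without cells rich in transcripts of other lineages, a setting chosen after seeing the data, 1084 genes were higher and 1366 lower than in C1Q-positive cells. Thinned CD14 sums, EPX sums without high Scrublet scores, and EPX and CD14 sums without cells rich in other lineages' transcripts held under 20 cells and were not run. Depth limits the members of organoid 33.10, whose sum held 755986 UMIs.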
